A study of Mus musculus with 24 samples.

Results

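The hearts described here are the 4 mouse hearts taken 8 weeks after transverse aortic constriction (TAC-HF) and the 4 hearts of the sham group named with them (Sham-HF). They were chosen by the group names in the labels and make up 8 of the 24 hearts of the series. All are hearts of the strain C57BL/6. The operation on TAC-HF mice narrowed the aortic arch, and Sham-HF mice had a sham operation whose time before collection the labels do not give. The labels give no age, chamber or time of day either, and no genotype or drug differs between the groups. The other 16 hearts come from the same constriction at 2 weeks with its own shams (TAC-LVH and Sham-LVH) and from running and sedentary mice, and the title of the series concerns lncExACT1 and DCHS2 in healthy and diseased growth of the heart. The labels do not spell out HF or LVH, and no measure of heart function is used here.

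Narrowing the aorta makes the left ventricle pump against a higher pressure. Heart muscle cells under such a load enlarge and switch on genes that the fetal heart uses, among them the natriuretic peptide genes, skeletal actin and slow myosin, while fibroblasts lay down matrix. A failing heart is also known to burn less fatty acid, the main fuel of the healthy heart, and to lose part of its ion channel and calcium handling transcripts.

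The comparison turned first on genes of the cardiomyocyte stress response, so the stretch before the transcription start is shown for 4 of them. Each is the 250 bases before the RefSeq start, given 5′ to 3′ on the gene's own strand, with the MCAT motif in capitals. The MCAT motif (CATTCC, or GGAATG where it lies on the other strand) is the site known to bind TEAD factors, which act in muscle and at the end of the Hippo pathway.
Acta1, skeletal actin, chr8:123894776-123895025, minus strand: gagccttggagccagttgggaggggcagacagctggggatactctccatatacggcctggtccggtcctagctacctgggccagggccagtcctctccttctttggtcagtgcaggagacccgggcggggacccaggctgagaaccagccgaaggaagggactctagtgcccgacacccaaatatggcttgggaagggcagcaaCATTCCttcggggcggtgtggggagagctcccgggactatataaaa
Ankrd1, a stretch-responsive repressor of the sarcomere, chr19:36119845-36120094, minus strand: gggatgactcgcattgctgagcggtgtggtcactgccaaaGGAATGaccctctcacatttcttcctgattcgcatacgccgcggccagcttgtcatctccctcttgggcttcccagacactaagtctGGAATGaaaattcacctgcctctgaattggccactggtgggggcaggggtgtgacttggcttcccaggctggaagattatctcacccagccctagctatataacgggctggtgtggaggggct
Nppb, B-type natriuretic peptide, chr4:147985650-147985899, plus strand: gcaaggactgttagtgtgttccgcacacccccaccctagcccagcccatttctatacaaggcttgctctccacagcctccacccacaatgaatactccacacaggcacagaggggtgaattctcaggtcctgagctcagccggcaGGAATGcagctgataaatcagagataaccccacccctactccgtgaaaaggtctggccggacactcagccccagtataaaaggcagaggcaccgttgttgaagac
Nppa, atrial natriuretic peptide, chr4:148000472-148000721, plus strand: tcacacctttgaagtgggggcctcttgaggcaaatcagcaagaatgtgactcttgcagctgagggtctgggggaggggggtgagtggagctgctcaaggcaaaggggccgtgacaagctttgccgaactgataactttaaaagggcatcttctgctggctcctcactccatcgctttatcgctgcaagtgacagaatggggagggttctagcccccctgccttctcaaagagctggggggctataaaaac
The sequences and positions are those of RefSeq for build GRCm38.p6. Acta1 held 1 motif on its own strand, whose first base lay 46 bases before the start. Ankrd1 held 2 on the other strand, at 210 and 123 bases, Nppb held 1 at 105 bases, and the Nppa window held none. Among genes with a window, the motif was found in 6 of 20 members of the list of fetal and stress genes (30%), and in 14.4% of all 27025 RefSeq genes. Its share was 13.5% among genes called higher and 13.9% among genes called lower, which is close to the 13% of all tested genes with a window. These are matches of letters and not measured binding.

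Total counts per heart ran from 17998364 to 26296353, and 18911 to 19814 genes had at least 1 count. Transcripts of the mitochondrial genome took 55.2% ± 2.05 of the counts in TAC-HF hearts and 64.1% ± 2.51 in Sham-HF hearts (SD, n = 4 each), with no overlap between the groups. The counts left for all other genes were 6560537 to 11339105 per heart. The Y-linked gene Ddx3y was at 35.7 to 46.0 CPM (counts scaled to the library size by TMM) in all 8 hearts. The 13 protein genes of the mitochondrial genome summed to 62311 to 74405 CPM in TAC-HF hearts and 87872 to 107160 CPM in Sham-HF hearts. Most of the mitochondrial share thus came from its other genes. Among them are 2 ribosomal RNA genes, both lower in TAC-HF hearts (edgeR adjusted p under 0.05). How ribosomal RNA depletion during library preparation bore on this share was not tested. On the first principal component (53% of the variance) TAC-HF hearts lay between 18.5 and 35.4 and Sham-HF hearts between -41.3 and -18.8. Sham-HF-1 lay closest of the shams to the TAC-HF hearts on that axis and stood apart at 26.9 on the second component (11.9%). It was the highest sham heart for 11 of 20 tested fetal and stress genes and for 16 of 20 markers of activated fibroblasts. Values without it are given for several of the lists and genes whose call or count it changed. Nothing in the labels says how the hearts were handled as batches. The sample descriptions number the TAC-HF libraries in 1 unbroken run, with Sham-HF-1 just before it and the other shams just after. Whether this order bore on the values was not tested. The p-values weigh the group difference against the spread between these hearts, which may be partly technical.

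The response was broad and of modest size for most genes. Of 13621 genes tested with edgeR, 4032 were called at an adjusted p under 0.05 (29.6%), 2032 higher in TAC-HF hearts (14.9%) and 2000 lower (14.7%). A change of at least 2-fold was reached by 422 of the genes called higher and 338 of those called lower, and at least 4-fold by 66 and 21. The median size of the log2 fold change among called genes was 0.57. The 4 values of TAC-HF hearts did not overlap with the 4 of Sham-HF hearts for 3379 of the 4032 called genes, against 29.5% of all tested genes.

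The split between higher and lower rests on the scaling. TMM, which was used throughout, centres all genes near 0 (median log2 fold change 0.00345). Scaling by library totals alone puts it at 0.33, and the calls become 6075 higher and 568 lower, so that 91.4% of called genes are higher in place of 50.4%. With the mitochondrially encoded genes left out before scaling, edgeR called 2072 higher and 1951 lower. With RLE size factors, another scaling, in place of TMM it called 1981 higher and 2042 lower. All changes below are relative to the middle of all genes under TMM, and where the median of a list below crosses 0 under library totals, that median is given beside it. Among the decreases described below, those of Tnnt2, Tnni3, Mylk3, Furin, Agt, Cs, Cpt1b, Ppara, Esrra, Slc2a4, Atp2a2, Meis2, Fat3, Celsr1 and Arhgap18 were not called under library totals. In these whole-tissue RNA samples, fewer cells of a type and less RNA per cell cannot be told apart.

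**Figure D1:**
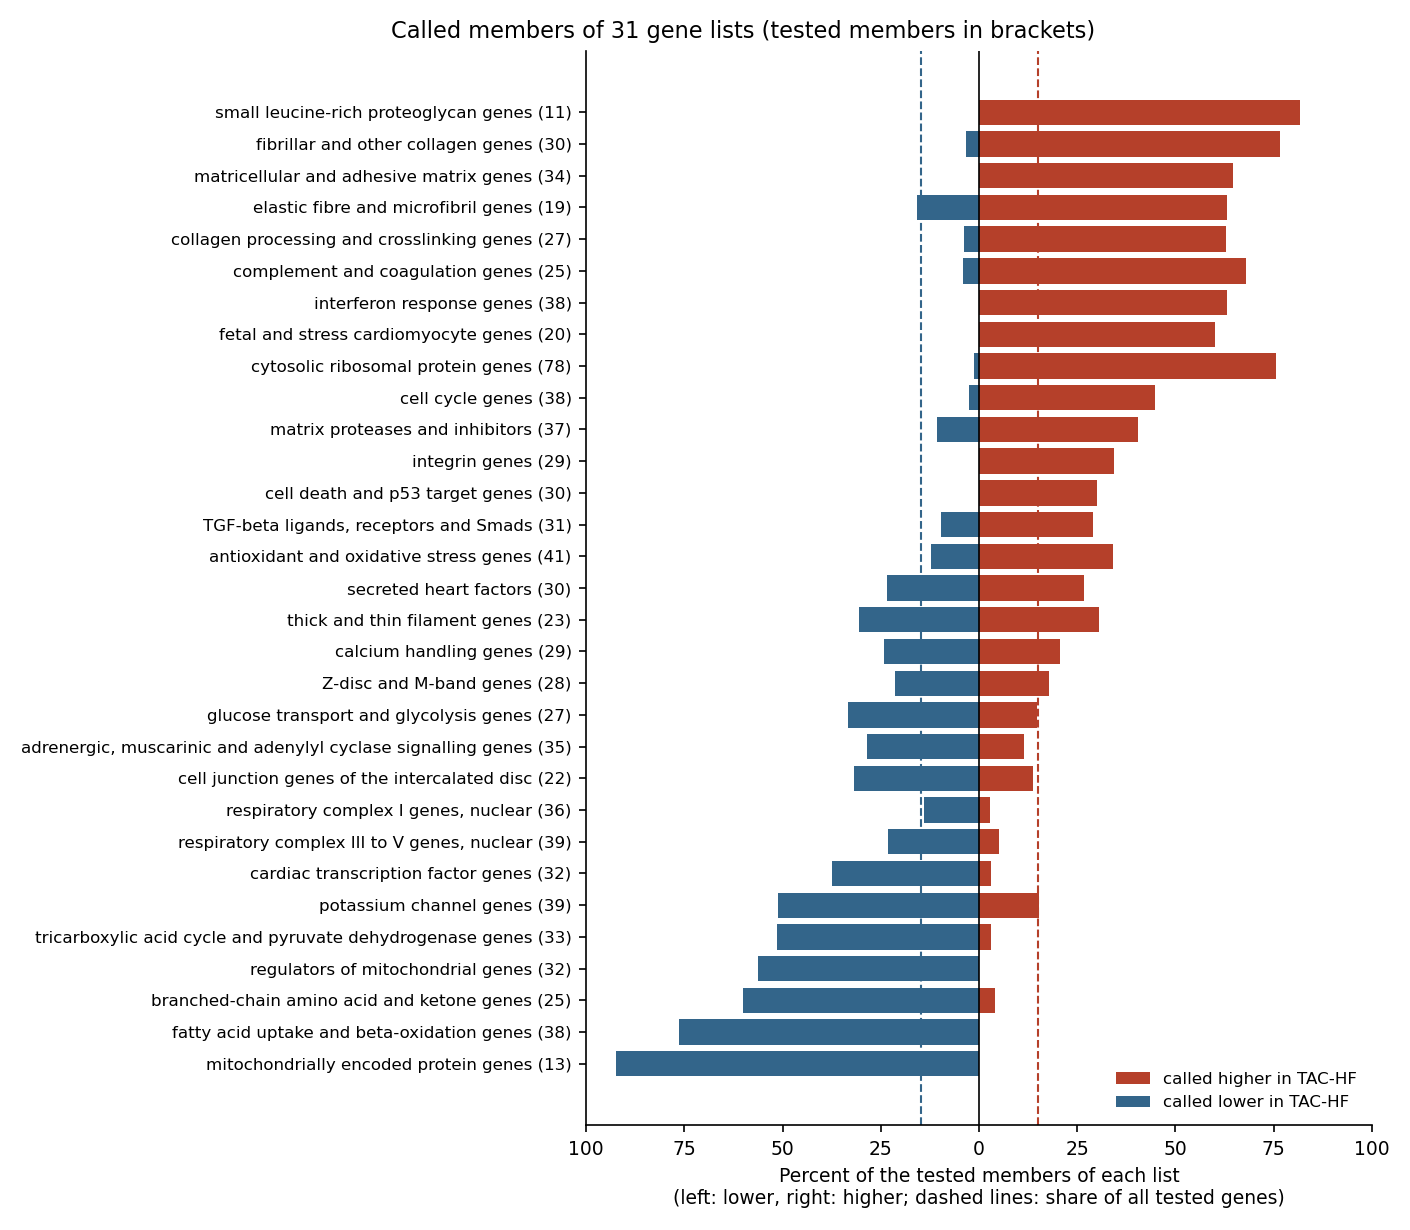
Share of the tested members of each gene list that were called higher (right) or lower (left) in TAC-HF hearts against Sham-HF hearts, in percent, with the number tested in brackets and dashed lines at the shares of all tested genes (14.9% and 14.7%). Matrix and immune lists lie on the right and fatty acid, potassium channel and mitochondrially encoded lists on the left.

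Genes of the fetal and stress programme rose in TAC-HF hearts, led by Acta1, Nppa and Myh7. Of 20 tested members of that list 12 were called higher and none lower (edgeR), with a median log2 fold change of 0.92. Without Sham-HF-1 it was 16 of 21.

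Acta1, the actin of skeletal muscle and of the fetal heart, was at 1170, 1057, 1203 and 1436 CPM in TAC-HF hearts, against 67.1, 39.3, 42.1 and 34.2 CPM in Sham-HF hearts. Every TAC-HF heart exceeded every sham heart many times over (log2 fold change 4.73 ± 0.222 SE, edgeR adjusted p = 1.84e-06), and Acta1 had the largest increase among genes above 2 CPM. Actc1, the cardiac actin of the adult heart, was at 2472 to 2923 CPM in TAC-HF hearts and 2478 to 2751 CPM in Sham-HF hearts, groups that overlapped (0.03 ± 0.0895, edgeR adjusted p = 0.808). Per exon length, Acta1 made up 32.3% ± 4.17 of the summed Acta1 and Actc1 level in TAC-HF hearts and 1.79% ± 0.512 in Sham-HF hearts (SD, n = 4 each). The coding sequences of the actins are nearly alike, so the division of reads between them depends on the authors' quantification.

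Nppa, the precursor of atrial natriuretic peptide, was at 366, 310, 303 and 416 CPM in TAC-HF hearts, against 18.4, 18.9, 26.9 and 20.1 CPM in Sham-HF hearts. The groups lay far apart and each was tight (log2 fold change 4.05 ± 0.147 SE, edgeR adjusted p = 5.67e-09). Nppb, the B-type peptide gene used as a marker of load, was at 294, 273, 443 and 400 CPM in TAC-HF hearts and 178, 26.9, 71.9 and 30.8 CPM in Sham-HF hearts. All TAC-HF values lay above all sham values, with Sham-HF-1 far above the other shams, and the gene missed the threshold (2.19 ± 0.672, edgeR adjusted p = 0.0534). Without Sham-HF-1 the log2 fold change was 3.02 and the edgeR adjusted p was 0.00455.

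Myh7, the slow myosin heavy chain of the fetal ventricle, was at 1431, 692, 670 and 480 CPM in TAC-HF hearts, against 45.6, 72.6, 66.8 and 83.5 CPM in Sham-HF hearts. TAC-HF-1 held about the level of the next 2 hearts together, and all 4 exceeded every sham (log2 fold change 3.61 ± 0.412 SE, edgeR adjusted p = 0.00109). Myh6, the fast isoform of the adult mouse ventricle, fell to 6306 to 7935 CPM in TAC-HF hearts, against 10882 to 13017 CPM in Sham-HF hearts (-0.79 ± 0.101, edgeR adjusted p = 7.1e-05). Per exon length, Myh7 made up 14.4% of the pair in TAC-HF-1, 4.99% in the lowest TAC-HF heart, and 0.426% ± 0.0719 in Sham-HF hearts (SD, n = 4). The myosin RNA of these hearts thus remained mostly Myh6.

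Mhrt, the long noncoding RNA transcribed against Myh7, fell to 3.55, 5.06, 4.14 and 4.84 CPM in TAC-HF hearts, against 6.91, 10.4, 7.79 and 11.7 CPM in Sham-HF hearts (log2 fold change -1.05 ± 0.17 SE, edgeR adjusted p = 0.000556). The strand setting of the counts is not given in the sources used here, and without it reads of such a pair cannot be told apart where they overlap.

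Other members of the fetal and stress list rose as well. Ankrd1 was at 1322, 1060, 1244 and 1435 CPM in TAC-HF hearts, against 251, 173, 164 and 175 CPM in Sham-HF hearts (log2 fold change 2.73 ± 0.143 SE, edgeR adjusted p = 1.33e-07). Xirp2, an actin-binding protein of the intercalated disc, rose to 2447 to 3880 CPM in TAC-HF hearts, against 585 to 1002 CPM in Sham-HF hearts (1.98 ± 0.199, edgeR adjusted p = 9.37e-05). Neither pair of groups overlapped, and Sham-HF-1 was again the highest sham in both genes. Smaller increases were those of Synpo2l (1.501, edgeR adjusted p = 0.00131), Ankrd23 (1.33, 7.36e-06) and the ubiquitin hydrolase gene Uchl1 (1.395, 5.99e-05).

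**Figure D2:**
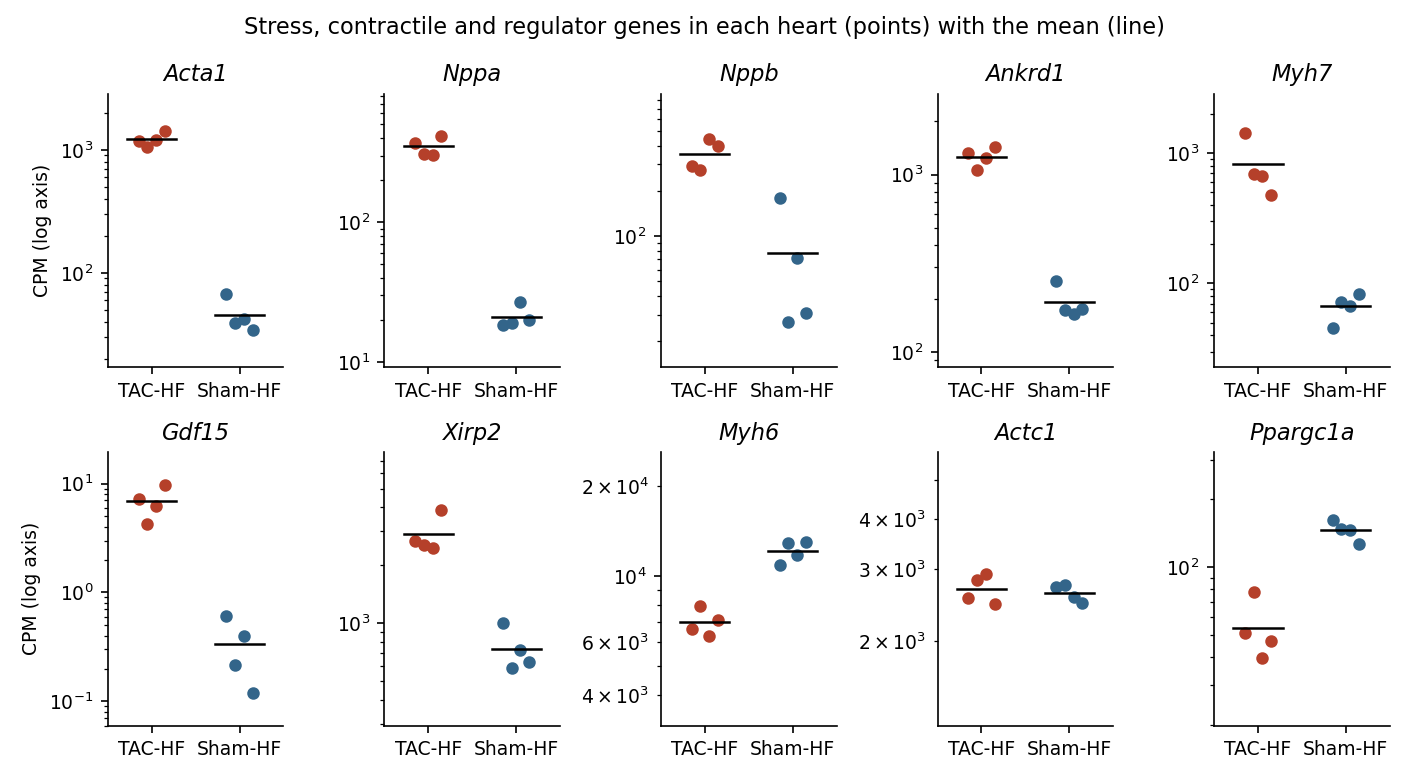
Expression in CPM (log axis) of 10 stress, contractile and regulator genes, with 1 point per heart, TAC-HF left of Sham-HF, and lines at the group means. Acta1, Nppa, Ankrd1 and Myh7 lie apart between the groups, Actc1 overlaps, and in Nppb 1 sham heart at 178 CPM lies near the TAC-HF hearts.

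The other contractile genes did not move as a block. Of 23 tested thick and thin filament genes, 7 were called higher and 7 lower, with a median log2 fold change of -0.05 that turned to 0.30 under library totals. Cfl2, a muscle cofilin that turns over actin filaments, rose (0.59 ± 0.0916 SE, edgeR adjusted p = 0.000331), as did Mybpc3, myosin-binding protein C (0.33, 0.00936), and Tnnc1, troponin C (0.33, 0.0139). The Tnnc1 call was lost without Sham-HF-3 or TAC-HF-1. It was also lost with the trend of change with transcript length removed (0.16, edgeR adjusted p = 0.0910). Tnnt2 (-0.51, edgeR adjusted p = 0.0025), Tnni3 (-0.44, 0.00611) and the myosin kinase gene Mylk3 (-0.54, 0.000567) fell. In the main test under TMM, troponin subunits of the same complex thus lay on both sides.

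Among 28 Z-disc and M-band genes 5 were called higher and 6 lower (3 lower without Sham-HF-2, Sham-HF-3 or TAC-HF-1). Myot, which encodes the Z-disc protein myotilin, was at 81.6, 56.2, 71.5 and 66.7 CPM in TAC-HF hearts and 27.5, 27.8, 26.5 and 21.4 CPM in Sham-HF hearts (log2 fold change 1.42 ± 0.117 SE, edgeR adjusted p = 3.05e-06). The groups did not overlap. Csrp3, the muscle LIM protein gene, rose by less (0.56 ± 0.117, edgeR adjusted p = 0.00293). Of 22 intercalated disc junction genes 3 were called higher and 7 lower, with a median of -0.18 that turned to 0.16 under library totals (5 higher, 2 lower). Dsg2, desmoglein of the cardiac desmosome, fell to 16.8 to 23.4 CPM in TAC-HF hearts, against 36.6 to 48.0 CPM in Sham-HF hearts (-1.12 ± 0.11, edgeR adjusted p = 9.32e-06). The intermediate filament gene Des rose (0.58, edgeR adjusted p = 0.000352), and Gja1, connexin 43, was not called (-0.33, 0.125).

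Secreted factors of the heart divided, with 8 of 30 tested called higher and 7 lower. Gdf15, a stress cytokine that acts on appetite, was at 7.28, 4.29, 6.24 and 9.75 CPM in TAC-HF hearts, against 0.603, 0.218, 0.3996 and 0.120 CPM in Sham-HF hearts. The groups lay far apart (4.30 ± 0.371, edgeR adjusted p = 2.05e-05). Edn3, an endothelin, rose to 4.60 to 7.05 CPM in TAC-HF hearts, against 0.523 to 1.62 CPM in Sham-HF hearts (2.60 ± 0.261, edgeR adjusted p = 2.05e-05). Igf1 rose (0.96 ± 0.0993, edgeR adjusted p = 1.55e-05) and Igf2, the fetal growth factor, fell (-0.99 ± 0.13, 9.47e-05). Both insulin-like growth factors had groups that did not overlap.

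Genes of enzymes that cut natriuretic peptides fell while the precursor gene Nppa rose. Corin, the protease that cuts the atrial precursor, was at 75.7, 76.3, 68.5 and 76.6 CPM in TAC-HF hearts, against 120, 110, 134 and 130 CPM in Sham-HF hearts (log2 fold change -0.73 ± 0.0846 SE, edgeR adjusted p = 3.34e-05). Furin, which cuts the B-type precursor, fell too (-0.52 ± 0.137, edgeR adjusted p = 0.0128). Mme, neprilysin, which degrades the peptides, fell to 2.44 to 4.29 CPM in TAC-HF hearts, against 6.45 to 8.32 CPM in Sham-HF hearts (-1.26 ± 0.165, edgeR adjusted p = 8.78e-05). The clearance receptor gene Npr3 was not called (0.22, edgeR adjusted p = 0.194). Across the 28 tested genes of cyclic GMP, phosphodiesterases and natriuretic receptors 3 were called higher and 8 lower, with a median of -0.09 (0.24 under library totals). Pde3a, the cardiac phosphodiesterase that is a target of inotropic drugs, was among those that fell (-0.71 ± 0.0999, edgeR adjusted p = 0.000163).

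Of 16 renin-angiotensin, endothelin and kinin genes 5 were called higher and 1 lower. Ace, angiotensin-converting enzyme, was at 73.4, 76.6, 60.6 and 108 CPM in TAC-HF hearts and 38.9, 28.4, 29.8 and 24.5 CPM in Sham-HF hearts (log2 fold change 1.39 ± 0.188 SE, edgeR adjusted p = 0.00067). The member that fell was Agt, angiotensinogen, which was near 1 CPM in both groups and overlapped between them (-0.75, edgeR adjusted p = 0.034, lost without Sham-HF-1, Sham-HF-3, Sham-HF-4, TAC-HF-3 or TAC-HF-4). The receptor gene Agtr1a was not called (-0.37, 0.363).

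Most matrix lists were mainly higher in TAC-HF hearts. Called higher were 23 of 30 tested collagen genes (1 lower), 17 of 27 collagen processing and crosslinking genes (1 lower), 9 of 11 small leucine-rich proteoglycan genes, 22 of 34 matricellular and adhesive genes, 12 of 19 elastic fibre genes (3 lower) and 15 of 37 matrix proteases and inhibitors (4 lower). The median log2 fold changes of these lists lay between 0.37 and 0.94, against 0.00345 for all genes. With any 1 heart left out, the collagens kept 21 to 23 members called higher and the collagen processing genes 14 to 21.

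The largest increases were in matricellular and structural proteins that activated fibroblasts are known to make. Postn, periostin, was at 295, 268, 207 and 467 CPM in TAC-HF hearts, against 30.2, 27.1, 24.3 and 19.5 CPM in Sham-HF hearts (log2 fold change 3.61 ± 0.276 SE, edgeR adjusted p = 7.9e-05). Cilp, a matrix protein that binds TGF-beta, was at 177, 158, 120 and 187 CPM in TAC-HF hearts and 18.6, 13.0, 8.39 and 8.02 CPM in Sham-HF hearts (3.73 ± 0.303, edgeR adjusted p = 0.000147). TAC-HF-3 was the lowest TAC-HF heart for both genes, as for Thbs4 and Ltbp2.

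Thbs4, thrombospondin 4, was at 48.8, 54.2, 29.7 and 70.9 CPM in TAC-HF hearts, against 4.96, 2.44, 3.75 and 2.15 CPM in Sham-HF hearts (3.92 ± 0.363, edgeR adjusted p = 0.000337). Ltbp2, a binding partner of microfibrils, rose by 3.85 ± 0.412 (edgeR adjusted p = 0.000804). Col12a1, a collagen on the surface of fibrils, rose to 20.8 to 37.9 CPM in TAC-HF hearts, against 1.38 to 4.59 CPM in Sham-HF hearts (3.32 ± 0.314, edgeR adjusted p = 0.000239). The short-chain collagens Col8a1 and Col8a2 rose by 2.98 and 2.95 (edgeR adjusted p = 1.74e-05 and 1.84e-06), and Col22a1, a collagen of tissue junctions, by 3.25 (1.9e-06). None of these genes overlapped between the groups.

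The fibrillar collagens that fill most of the interstitium rose by less. Col1a1 was at 86.5, 127, 57.2 and 123 CPM in TAC-HF hearts, against 42.7, 37.0, 38.0 and 26.4 CPM in Sham-HF hearts (log2 fold change 1.45 ± 0.274 SE, edgeR adjusted p = 0.00713). Col3a1 was at 252, 318, 189 and 310 CPM in TAC-HF hearts and 112, 116, 91.2 and 78.5 CPM in Sham-HF hearts (1.43 ± 0.177, edgeR adjusted p = 0.000311). In both genes TAC-HF-3 lay closest to the shams, and it was the lowest TAC-HF heart for 21 of the 30 collagen genes. Sparc, which chaperones collagen, rose by 1.26 ± 0.109 (edgeR adjusted p = 3.84e-06), and Fn1, fibronectin, by 1.49 ± 0.175 (0.000224).

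Lox, the enzyme that crosslinks collagen, was at 16.1, 24.6, 13.7 and 42.5 CPM in TAC-HF hearts and 8.77, 3.53, 4.05 and 2.99 CPM in Sham-HF hearts (log2 fold change 2.32 ± 0.515 SE, edgeR adjusted p = 0.0179). Its call was lost without Sham-HF-2, Sham-HF-3 or Sham-HF-4, with edgeR adjusted p values up to 0.0847 over these and the fit blocked by replicate number. Lox was 1 of the genes with the widest spread among TAC-HF hearts, together with the protease inhibitor gene Serpina3n (2.08 ± 0.564, edgeR adjusted p = 0.0365) and the membrane protein gene Emp1 (1.66 ± 0.325, 0.00916). Serpina3n lost its call without Sham-HF-2, Sham-HF-3, Sham-HF-4 or TAC-HF-3, with the block and with no filter (edgeR adjusted p 0.0563 to 0.0939), and Emp1 lost it with the block (0.0851). TAC-HF-4 held the highest value in each, and for Serpina3n its 51.2 CPM stood against 12.9 to 20.4 CPM in the other 3 TAC-HF hearts.

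Some matrix and fibroblast genes fell. Col6a6, a collagen VI chain, was at 1.139 to 3.21 CPM in TAC-HF hearts, against 5.24 to 8.59 CPM in Sham-HF hearts (log2 fold change -1.61 ± 0.267 SE, edgeR adjusted p = 0.00146). Efemp1, a fibulin (-1.32 ± 0.18, edgeR adjusted p = 0.000127), Emilin2, an elastic fibre protein (-1.02 ± 0.114, 2.53e-05), and Scara5, a ferritin receptor of resting fibroblasts (-1.39 ± 0.187, 0.000211), fell as well. The groups did not overlap in any of the 4.

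Among cell type markers, 18 of 20 tested genes of activated fibroblasts were called higher and none lower, with a median of 2.25 and a summed level of 628 to 1177 CPM in TAC-HF hearts against 94.8 to 178 CPM in Sham-HF hearts. Without Sham-HF-1 it was 18 of 21, with a median of 2.66. Several of these markers are the matrix genes above. Of 15 markers of resident fibroblasts 8 were called higher and 1 lower (median 0.50). Acta2, the smooth muscle actin that marks myofibroblasts, was not called and overlapped between the groups (-0.01, edgeR adjusted p = 0.988), nor was Pdgfra, a general fibroblast receptor (0.25, 0.0949). Pdgfra was called higher under some alternatives and not under others. Among the former were library totals (0.58, edgeR adjusted p = 0.00273) and the fit without TAC-HF-3 (0.33, 0.0273). The Acta1 and Actc1 caveat on shared reads applies to Acta2 too.

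**Figure D3:**
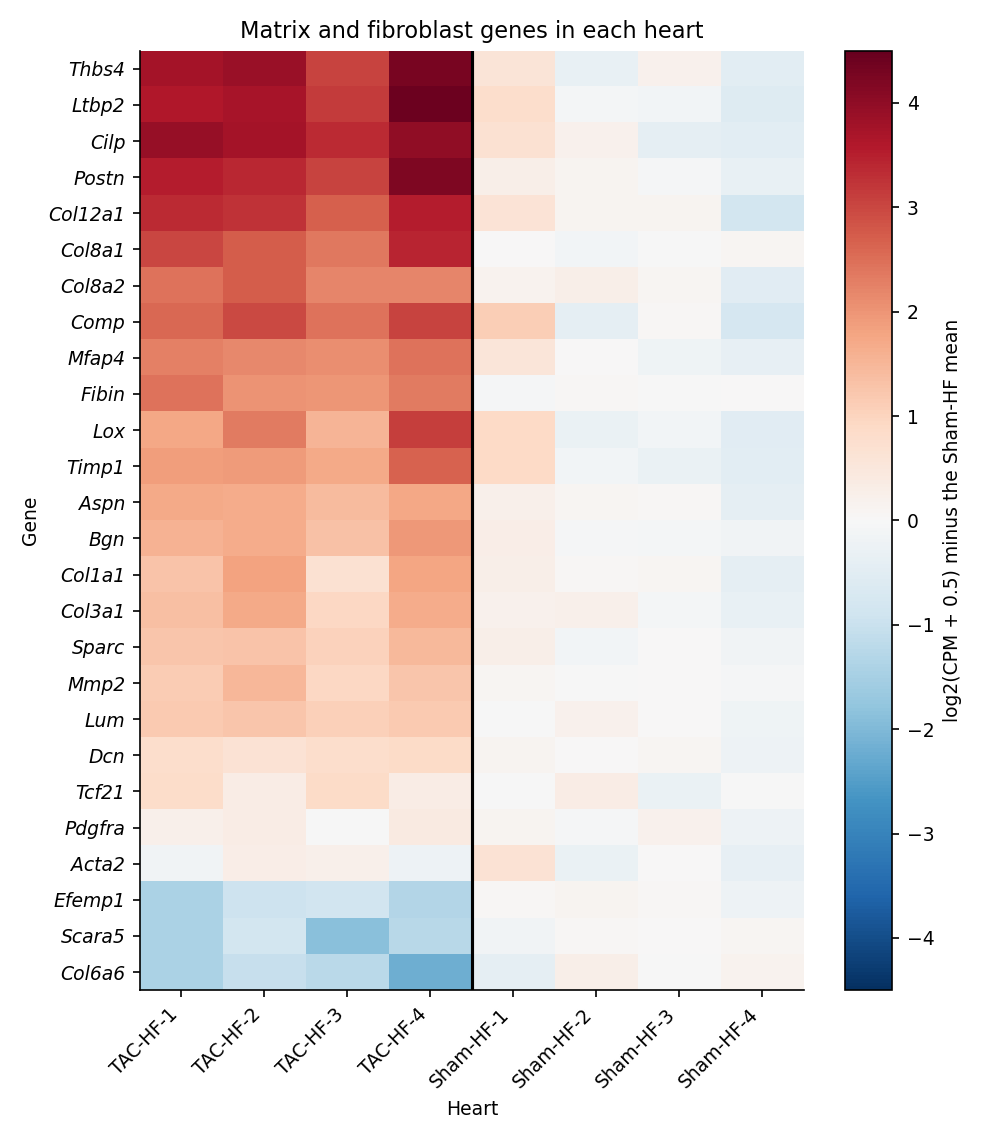
Heat map of matrix and fibroblast genes (rows) in each heart (columns, TAC-HF left of the black line, Sham-HF right), as log2(CPM + 0.5) minus the mean of the Sham-HF hearts. Red marks levels above the sham mean, blue below it, and Sham-HF-1 is the reddest of the sham columns in the upper rows.

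Of the signals that act on fibroblasts, 9 of 31 TGF-beta ligands, receptors and Smads were called higher and 3 lower. Tgfb3 rose to 15.6 to 18.0 CPM in TAC-HF hearts, against 5.89 to 8.86 CPM in Sham-HF hearts (log2 fold change 1.198 ± 0.117 SE, edgeR adjusted p = 9.02e-06). Tgfb2 rose by 1.222 ± 0.222 (edgeR adjusted p = 0.00263), the receptor genes Tgfbr1 and Tgfbr2 by 0.92 and 0.59 (0.000138 and 0.000334), and Tgfb1 was not called (0.41, 0.197). In the Wnt list 8 of 26 were called higher and 3 lower, and the 3 with the smallest p among the called members all encode inhibitors of Wnt signalling: Frzb (2.18 ± 0.207, edgeR adjusted p = 2.32e-05), Nkd2 (1.45 ± 0.169, 3.59e-05) and Sfrp1 (1.43 ± 0.162, 6.28e-05). Of 29 integrin genes 10 were called higher and none lower, led by Itga9, a receptor for tenascin (1.164 ± 0.0896, edgeR adjusted p = 1.84e-06).

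Genes of innate immunity rose as well. Of 38 tested interferon response genes 24 were called higher and none lower, with a median log2 fold change of 0.59, a count that was 15 without Sham-HF-2 or TAC-HF-3. Ifit3, an antiviral effector, was at 6.33, 4.56, 7.75 and 5.87 CPM in TAC-HF hearts, against 2.55, 2.14, 3.396 and 2.69 CPM in Sham-HF hearts (1.188 ± 0.181 SE, edgeR adjusted p = 0.000308). Ifi27l2a, another interferon-induced gene, rose by 1.31 ± 0.142 (edgeR adjusted p = 2.12e-05). Complement and coagulation genes were called higher in 17 of 25 (1 lower). C1qb, a complement gene that macrophages express, rose by 0.96 ± 0.124 (edgeR adjusted p = 8.03e-05). F2r, the thrombin receptor gene, rose by 1.158 ± 0.105 (5.44e-06).

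Of 18 antigen presentation genes 6 were called higher (12 without TAC-HF-4). B2m, the invariant chain of class I molecules, was at 96.4, 90.7, 141 and 92.8 CPM in TAC-HF hearts, against 51.4, 56.1, 68.2 and 39.9 CPM in Sham-HF hearts (log2 fold change 0.96 ± 0.188 SE, edgeR adjusted p = 0.00479). TAC-HF-3 stood above the other TAC-HF hearts, and it was the highest of them for 16 of the 18 genes. Chemokine and cytokine genes divided, with 12 of 35 called higher and 4 lower. Cxcl16 rose (0.82 ± 0.126, edgeR adjusted p = 0.000318) and Il15, a cytokine that muscle makes, fell (-0.85 ± 0.145, 0.000689).

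Markers of macrophages and monocytes moved with these genes. Of 23 tested 13 were called higher and none lower, and their summed level was 234 to 338 CPM in TAC-HF hearts against 142 to 217 CPM in Sham-HF hearts. Their part in the immune results was not tested. Adgre1, the gene of the macrophage marker F4/80, rose by 1.129 ± 0.151 (edgeR adjusted p = 0.000126) and Mrc1, the mannose receptor, by 0.67 ± 0.102 (0.000284), whereas Ccr2, Lyve1 and Cd163 were not called (0.59, 0.12 and 0.04). T and NK cell markers had too few counts to be tested and summed to at most 1.93 CPM in any heart. Cd3e was at most 0.0772 CPM, and the lung gene Sftpc was at 0 in all 8 hearts.

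General endothelial markers stood out for the absence of calls. None of 19 tested endothelial markers was called by edgeR in either direction, 4 had an unadjusted p under 0.05 (2 higher, 2 lower), and DESeq2 called 1 higher. With 1 heart left out, at most 1 of these markers was called higher and at most 2 lower. Their summed level was 1056 to 1178 CPM in TAC-HF hearts and 973 to 1162 CPM in Sham-HF hearts. Pecam1, the junction protein CD31, was at 80.5 to 82.5 CPM in TAC-HF hearts and 61.6 to 86.2 CPM in Sham-HF hearts (log2 fold change 0.09, edgeR adjusted p = 0.497). Under library totals 12 of the 19 were called higher, with a median of 0.39 close to the shift of all genes. A separate list of endocardial and lymphatic endothelial markers had 3 of 11 called higher and none lower. Without Sham-HF-1 it had 4 higher and 2 lower. Of 16 pericyte and smooth muscle markers 4 were called higher and 1 lower.

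Proliferation genes rose in part. Of 38 cell cycle genes 17 were called higher and 1 lower (median 0.59). Top2a, a topoisomerase of dividing cells, was at 4.93, 6.06, 3.36 and 4.73 CPM in TAC-HF hearts, against 1.81, 1.66, 1.95 and 2.04 CPM in Sham-HF hearts (log2 fold change 1.36 ± 0.185 SE, edgeR adjusted p = 0.000124). Mki67 rose by 0.92 ± 0.156 (edgeR adjusted p = 0.000652) and cyclin D1 gene Ccnd1 by 0.60 ± 0.0984 (0.000508). The member that fell was Cenpf, a kinetochore protein that also binds microtubules in muscle cells. It was at 4.41, 5.87, 3.65 and 3.63 CPM in TAC-HF hearts, against 15.4, 19.8, 21.2 and 25.9 CPM in Sham-HF hearts (-2.22 ± 0.186, edgeR adjusted p = 1.33e-05), which placed it opposite to the other mitotic genes and well outside the spread of either group.

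Of 30 cell death and p53 target genes 9 were called higher and none lower (median 0.38). Bcl2, which restrains apoptosis, rose by 1.178 ± 0.112 (edgeR adjusted p = 7.36e-06), Phlda3, a p53 target that restrains Akt, by 1.2 ± 0.156 (7.65e-05), and Casp12, a caspase linked to endoplasmic reticulum stress, by 1.1 ± 0.136 (4.32e-05). Of 41 antioxidant and oxidative stress genes 14 were called higher (9 without Sham-HF-3 or Sham-HF-4) and 5 lower. Nox4, an oxidase that makes hydrogen peroxide, was at 7.33, 5.91, 5.29 and 10.2 CPM in TAC-HF hearts, against 2.23, 0.828, 0.949 and 0.479 CPM in Sham-HF hearts (2.64 ± 0.38, edgeR adjusted p = 0.00117). Hmox1, heme oxygenase (1.147, edgeR adjusted p = 0.000408, and 0.0816 with all 24 hearts in the fit), and Gpx1, a glutathione peroxidase (0.91, 5.06e-05), rose, and Aldh2, which clears reactive aldehydes in mitochondria, fell (-0.88 ± 0.0935, 1.81e-05).

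Unfolded protein response genes (5 of 37 higher, 1 lower), immediate early genes (2 of 22 higher) and heat shock genes (3 of 26 higher) had few calls. Without Sham-HF-1 the counts called higher were 8, 4 and 9, and for the first list 2 without Sham-HF-2 and 3 without Sham-HF-3 or TAC-HF-4. The list of muscle ubiquitin ligases and autophagy held 11 higher and 8 lower of 38, with 20 and 1 under library totals and a median of -0.0035 that turned to 0.33. It held 6 higher without Sham-HF-2, and 7 higher and 5 lower without TAC-HF-1. The count lower was 5 without Sham-HF-3 or TAC-HF-4 and 12 without Sham-HF-1. The atrophy ligase genes Fbxo32 and Trim63 were not called (0.20 and 0.13, edgeR adjusted p = 0.552 and 0.531).

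Genes of fuel use fell relative to the middle of all genes. Of 38 tested genes of fatty acid uptake and beta-oxidation 29 were called lower and none higher, with a median log2 fold change of -0.40. Under library totals the median was -0.07, with 10 called lower and 2 higher, against the shift of 0.33 that this scaling gives all genes. Of 33 genes of the tricarboxylic acid cycle and pyruvate dehydrogenase 17 were called lower and 1 higher, with a median of -0.26 that turned to 0.07 under library totals. Of 25 branched-chain amino acid and ketone genes 15 were called lower and 1 higher (-0.34, and within 0.01 of 0 under library totals). The summed level of the fatty acid genes was 4869 to 5639 CPM in TAC-HF hearts and 6361 to 7008 CPM in Sham-HF hearts.

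Some members fell under either scaling. Slc27a1, a fatty acid transport protein, was at 18.3, 18.1, 14.4 and 15.7 CPM in TAC-HF hearts, against 33.8, 46.9, 40.5 and 49.4 CPM in Sham-HF hearts (log2 fold change -1.36 ± 0.122 SE, -1.02 under library totals, edgeR adjusted p = 5.67e-06). Acaa2, the thiolase of the last step of beta-oxidation, was at 137, 137, 150 and 114 CPM in TAC-HF hearts and 240, 288, 259 and 242 CPM in Sham-HF hearts (-0.94 ± 0.0995, -0.61 under library totals, edgeR adjusted p = 1.81e-05). The groups of neither gene overlapped. Cpt1b, the entry step of long-chain fatty acids into mitochondria, fell under TMM (-0.34 ± 0.0774, edgeR adjusted p = 0.00511) and was within 0.01 of 0 under library totals. Cd36, the fatty acid translocase, was not called (-0.08, edgeR adjusted p = 0.565).

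In the citric acid cycle list, members that fell included Sdha, a subunit of succinate dehydrogenase (-0.69 ± 0.0809, edgeR adjusted p = 3.75e-05), and Cs, citrate synthase (-0.53 ± 0.0772, 0.000198). Pdk2, a kinase that shuts pyruvate dehydrogenase, fell too (-0.61 ± 0.0865, 0.000174). Among the branched-chain genes Ppm1k, the phosphatase that activates their breakdown, fell (-0.88, edgeR adjusted p = 6.58e-05), as did Ivd, of the leucine pathway (-0.72, 4.75e-05). Bdh1, the enzyme that oxidises the ketone body 3-hydroxybutyrate, was the 1 member that rose. It was at 69.1, 56.6, 67.6 and 64.6 CPM in TAC-HF hearts, against 37.3, 24.5, 31.9 and 30.2 CPM in Sham-HF hearts (1.06 ± 0.114, edgeR adjusted p = 2.13e-05). Oxct1, the next enzyme of ketone use, was not called (0.06, edgeR adjusted p = 0.602).

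**Figure D4:**
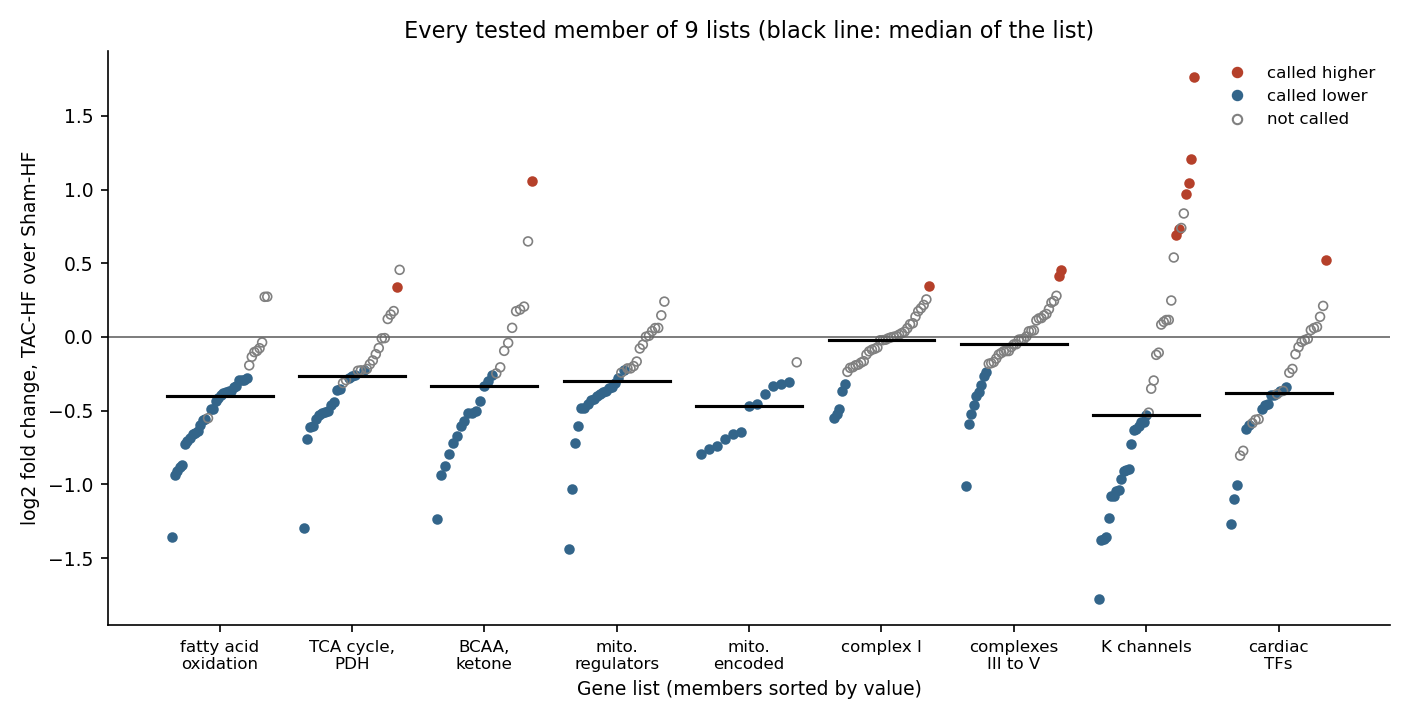
Log2 fold change of TAC-HF over Sham-HF for every tested member of 9 lists, sorted within each list, filled where called and open where not, with a black line at the median of each list. The fatty acid list lies almost wholly below 0 (29 of 38 called lower), and the complex I list is centred near 0 (median -0.02).

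The nuclear genes of the respiratory chain moved little. Of 36 complex I genes 5 were called lower and 1 higher (median -0.02), and of 39 genes of complexes III to V 9 lower and 2 higher (median -0.05). Without TAC-HF-3 the complex I count was 12 lower. Under library totals the medians were 0.31 and 0.27. The 13 protein genes of the mitochondrial genome fell by more, with 12 called lower and a median of -0.47, and with -0.13 and 6 called lower under library totals. mt-Nd4, a complex I subunit, was at 4359 to 5447 CPM in TAC-HF hearts, against 7241 to 9100 CPM in Sham-HF hearts (-0.76 ± 0.106 SE, edgeR adjusted p = 0.00015). Of 76 mitochondrial ribosomal protein genes 8 were called higher and 4 lower, a count that was 2 higher without Sham-HF-4, 4 without TAC-HF-1, 5 without Sham-HF-3 or TAC-HF-3 and 17 without TAC-HF-2.

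Regulators of mitochondrial genes fell, with 18 of 32 called lower and none higher (median -0.30, and 0.03 with 5 higher and 2 lower under library totals). Ppargc1a, the coactivator PGC-1 alpha that drives mitochondrial gene programmes, was at 51.1, 77.8, 39.7 and 46.9 CPM in TAC-HF hearts, against 162, 148, 147 and 127 CPM in Sham-HF hearts (log2 fold change -1.44 ± 0.19 SE, -1.113 under library totals, edgeR adjusted p = 0.000595). Its relative Ppargc1b fell by 1.03 on the log2 scale (edgeR adjusted p = 0.00116). Among the receptors they act on, Ppara had -0.60 (edgeR adjusted p = 0.00161) and Esrra -0.31 (0.0281, groups overlapping, 0.01 under library totals, and not called without Sham-HF-1, Sham-HF-3, TAC-HF-1, TAC-HF-2 or TAC-HF-4).

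Of 27 tested genes of glucose transport and glycolysis 9 were called lower and 4 higher (median -0.12, 0.22 under library totals), and the share called higher was close to that of all genes (14.9%). The higher count was 2 without Sham-HF-3, Sham-HF-4, TAC-HF-1 or TAC-HF-3. Pfkfb1, which sets the level of fructose 2,6-bisphosphate, was at 1.25, 1.08, 1.108 and 1.175 CPM in TAC-HF hearts, against 3.34, 6.58, 5.09 and 9.64 CPM in Sham-HF hearts (-2.40 ± 0.298 SE, edgeR adjusted p = 0.000195). The insulin-responsive transporter gene Slc2a4 fell under TMM (-0.39, edgeR adjusted p = 0.00541, and -0.05 under library totals), and Slc2a1 was not called (0.31, 0.0912). In the glycogen list (median -0.09, and 0.24 under library totals) Phkg1, the muscle phosphorylase kinase subunit, fell by 1.69 on the log2 scale (edgeR adjusted p = 1.9e-06), and Ugp2, which makes the sugar donor for glycogen, rose by 1.2 ± 0.107 (5.42e-06).

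Many potassium channel genes fell. Of 39 tested 20 were called lower and 6 higher, with a median of -0.53 that was -0.19 under library totals (14 lower, 12 higher). With 1 heart left out 19 or 20 were lower, while the count higher was 2 without Sham-HF-4 or TAC-HF-4 and 3 without Sham-HF-2 or TAC-HF-2. Kcnd2, a pore of the fast transient outward current, was at 6.57, 8.92, 5.95 and 6.23 CPM in TAC-HF hearts, against 15.4, 18.8, 18.4 and 18.4 CPM in Sham-HF hearts (-1.36 ± 0.128 SE, edgeR adjusted p = 6.97e-06). Its partner gene Kcnip2 fell too (-0.62, edgeR adjusted p = 0.000255). So did Kcnh2, the hERG channel of repolarisation (-1.37, 2.43e-05), Kcnq1 (-0.73, 0.000573), Kcnj2 of the inward rectifier (-0.91, 0.00861), Kcnj3 of the acetylcholine-gated current (-1.229, 1.27e-05) and the modifier subunit Kcnv2 (-1.78, 1.81e-05). In each of these the TAC-HF and Sham-HF values did not overlap.

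Of 32 sodium, calcium, chloride and pacemaker channel genes 13 were called lower and 4 higher, with a median of -0.30 that turned to 0.04 under library totals, and 8 were lower without Sham-HF-4. Cacna1c, the pore of the L-type calcium channel, was at 163, 188, 138 and 160 CPM in TAC-HF hearts, against 267, 276, 268 and 334 CPM in Sham-HF hearts (-0.82 ± 0.105 SE, edgeR adjusted p = 7.9e-05). Clcn1, the chloride channel of skeletal muscle, fell by 2.14 on the log2 scale (0.00482).

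Calcium handling genes held 6 higher (3 without Sham-HF-3, Sham-HF-4 or TAC-HF-4) and 7 lower of 29 (median -0.11, and 0.22 under library totals). Ryr2, the release channel of the sarcoplasmic reticulum, was at 1186, 1419, 960 and 1366 CPM in TAC-HF hearts, against 2276, 2311, 2205 and 2267 CPM in Sham-HF hearts (-0.88 ± 0.111 SE, edgeR adjusted p = 7.01e-05). Atp2a2, the pump that refills it, fell to 3818 to 3906 CPM in TAC-HF hearts, against 5128 to 5692 CPM in Sham-HF hearts (-0.50 ± 0.0824, -0.17 under library totals, edgeR adjusted p = 0.0005). Hrc, a calcium-binding protein of the same store, fell by 0.92 on the log2 scale (2.07e-05), and the exchanger gene Slc8a1 was not called (-0.10, 0.343). Pln, the inhibitor of the pump, missed the threshold (-0.29, edgeR adjusted p = 0.0556). It was called under some alternatives, among them the fit without Sham-HF-1 (-0.36, edgeR adjusted p = 0.0289).

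Of 35 adrenergic, muscarinic and adenylyl cyclase genes 4 were called higher and 10 lower (median -0.05, 0.29 under library totals). Called lower were the receptor genes Adra1a (-1.2, edgeR adjusted p = 1.6e-05), Adra1b (-1.44, 5.18e-05) and Adrb1, the main cardiac beta receptor (-0.93, 0.000361). Adcy7, a cyclase known mainly from blood and immune cells, was at 30.2, 29.5, 22.4 and 29.4 CPM in TAC-HF hearts, against 10.0, 7.76, 8.49 and 8.08 CPM in Sham-HF hearts (1.696 ± 0.115, edgeR adjusted p = 5.93e-07). It rose in every TAC-HF heart, with TAC-HF-3 the lowest.

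Cardiac transcription factor genes were called lower in 12 of 32 and higher in 1, with a median of -0.38 that was -0.04 under library totals (3 lower, 5 higher). Tbx5, a factor of the atria and left ventricle, fell to 2.01 to 3.45 CPM in TAC-HF hearts, against 3.90 to 8.50 CPM in Sham-HF hearts (-1.27 ± 0.235 SE, edgeR adjusted p = 0.00206). Prdm16 (-0.63, edgeR adjusted p = 0.000687) and Meis2 (-0.60, 0.00109) fell too. Of 18 calcineurin and NFAT genes 1 was called higher and 1 lower (median -0.04, and 0.30 with 7 higher under library totals), and Rcan1, the target gene used to read calcineurin activity, was not called (1.108 ± 0.493, edgeR adjusted p = 0.145). It was at 89.6 to 126 CPM in TAC-HF hearts, against 99.3 CPM in Sham-HF-1 and 24.1 to 50.6 CPM in the other shams. It was called without Sham-HF-1 (1.68, edgeR adjusted p = 0.00608) and with all 24 hearts in the fit (0.0272).

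The large cadherins of the family that holds Dchs2 moved both ways. Of 7 tested Fat, Dachsous and Celsr genes 3 were called higher and 3 lower, and the median was -0.13 (0.21 under library totals, with 3 higher and 1 lower). The count lower was 1 without Sham-HF-3 and 2 without Sham-HF-2, Sham-HF-4, TAC-HF-1, TAC-HF-3 or TAC-HF-4. Without Sham-HF-1 it was 4 of 8 tested. Dchs2 was at 3.83, 4.33, 2.26 and 3.70 CPM in TAC-HF hearts, against 0.958 to 1.53 CPM in Sham-HF hearts, and TAC-HF-3 was the lowest TAC-HF heart for it as for the matrix genes. Dchs1 was at 25.7, 32.1, 19.7 and 28.4 CPM in TAC-HF hearts and 16.8, 15.7, 15.5 and 17.7 CPM in Sham-HF hearts. Its groups did not overlap (0.69 ± 0.124, edgeR adjusted p = 0.00109). The gene Fat4, the receptor for Dachsous proteins, overlapped between the groups at 18.6 to 22.2 CPM in TAC-HF hearts and 19.7 to 27.4 CPM in Sham-HF hearts. Fat1 rose (0.84), and Celsr2 (-1.43), Fat3 (-0.83, edgeR adjusted p = 0.0289) and Celsr1 (-0.57, 0.0313) fell.

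The Hippo list, which includes TEAD targets, held 6 higher and 2 lower of 27 (median 0.07, 0.40 under library totals). Amot, a membrane partner of the effector YAP, rose to 21.0 to 27.1 CPM in TAC-HF hearts, against 8.24 to 11.1 CPM in Sham-HF hearts (1.32 ± 0.121 SE, edgeR adjusted p = 5.67e-06). Wwtr1, the effector TAZ, rose by 0.54 ± 0.0849 (edgeR adjusted p = 0.000398), and Yap1 was at 32.5 to 40.1 CPM in TAC-HF hearts and 35.3 to 38.9 CPM in Sham-HF hearts. Ccn2, a target of both and of TGF-beta, was at 110, 147, 130 and 195 CPM in TAC-HF hearts, against 93.3, 32.3, 41.2 and 21.4 CPM in Sham-HF hearts (1.62 ± 0.482, edgeR adjusted p = 0.0478), with Sham-HF-1 highest among the shams. That call was lost without any 1 of the other 7 hearts (edgeR adjusted p 0.073 to 0.113), and without Sham-HF-1 the log2 fold change was 2.18. Ankrd1, in this list and in the stress list, is described above.

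Of 30 exercise-linked and growth factor signalling genes 6 were called higher and 5 lower (3 without Sham-HF-3 or Sham-HF-4). Igfbp7, which binds insulin-like growth factors, was at 114, 102, 102 and 129 CPM in TAC-HF hearts and 40.5, 33.9, 35.0 and 33.6 CPM in Sham-HF hearts (1.64 ± 0.0974 SE, edgeR adjusted p = 1.33e-07). Cebpb, which restrains exercise growth in the mouse heart, was at 16.4, 14.6, 15.4 and 20.0 CPM in TAC-HF hearts, against 8.35, 12.5, 10.9 and 6.82 CPM in Sham-HF hearts. Its groups did not overlap, and the call made on these 8 hearts (0.77, edgeR adjusted p = 0.00529) was lost when all 24 hearts shared 1 estimate of the spread (0.0852). Cited4, which rises with exercise, overlapped between the groups and missed the threshold (-0.74, edgeR adjusted p = 0.0622). It was called lower under 6 alternatives and not under the others. Among the 6 were DESeq2 (DESeq2 adjusted p = 0.0353) and the fit without Sham-HF-2 (-0.94, edgeR adjusted p = 0.00979).

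Other genes that separated the groups sharply follow. Aqp8, a water channel, was at 6.66, 5.95, 6.11 and 6.01 CPM in TAC-HF hearts, against 0.603, 0.785, 0.899 and 0.838 CPM in Sham-HF hearts (2.98 ± 0.164 SE, edgeR adjusted p = 7.36e-08). Fibin, a secreted protein of unclear role in the heart, was at 19.0, 13.9, 13.7 and 17.4 CPM in TAC-HF hearts and 2.92, 3.23, 3.05 and 3.11 CPM in Sham-HF hearts (2.38 ± 0.131, edgeR adjusted p = 7.36e-08). Dio2, which activates thyroid hormone, was at 19.1, 15.9, 12.4 and 25.7 CPM in TAC-HF hearts, against 2.37, 1.00, 1.25 and 1.85 CPM in Sham-HF hearts (3.504 ± 0.307, edgeR adjusted p = 8.38e-05). The thyroid hormone receptor gene Thrb fell (-0.73 ± 0.0978, edgeR adjusted p = 0.000103). Lgals4, a galectin of the gut, fell to 2.46 to 6.03 CPM in TAC-HF hearts, against 13.4 to 27.7 CPM in Sham-HF hearts (-2.35 ± 0.315, edgeR adjusted p = 0.00136), and Aqp4, another water channel, fell by 1.94 on the log2 scale (9.63e-05).

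The transcript classes also divided. Of 78 tested cytosolic ribosomal protein genes 59 were called higher and 1 lower, with a median of 0.34. The count higher was 29 without Sham-HF-4, 31 without TAC-HF-1, 38 without Sham-HF-2, 39 without TAC-HF-3 and 45 without Sham-HF-1. TAC-HF-3 held the highest TAC-HF value for 72 of the 78. The member that fell was Rpl3l, the form of Rpl3 made in muscle, at 14.7, 20.5, 15.0 and 16.4 CPM in TAC-HF hearts, against 32.7, 37.1, 37.9 and 43.4 CPM in Sham-HF hearts (-1.179 ± 0.116 SE, edgeR adjusted p = 9.7e-06). Rpl3, the general form, rose to 61.8 to 73.7 CPM in TAC-HF hearts, against 40.9 to 45.1 CPM in Sham-HF hearts (0.64 ± 0.0836, edgeR adjusted p = 8.76e-05). Reads of near-identical ribosomal pseudogenes could enter such counts.

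Small nucleolar RNA genes were called higher in 37 of 58 and small nuclear RNA genes in 14 of 23, with none lower. Of genes with no settled class (TEC) 96 of 255 were called lower and 1 higher, of antisense genes 56 of 212 and 8, and of long intergenic noncoding RNA genes 48 of 168 and 10. Transcript length moved with these results. Among 12390 protein-coding genes the log2 fold change had a rank correlation of -0.219 with exon length, across genes that share the same 8 libraries, and its median was 0.30 for 239 genes up to 1000 bases and -0.09 for 2408 genes over 8000 bases. With the length trend removed from each library, an alternative chosen after seeing the data, the small nucleolar RNA genes had 6 higher and 3 lower, the small nuclear RNA genes 4 higher, the ribosomal protein genes 49 higher, the TEC genes 102 lower, and complex I 16 lower.

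Of 26 imprinted genes 4 were called higher and 10 lower (median -0.42, -0.09 under library totals). H19, a noncoding RNA abundant before birth, was at 4.12, 2.55, 2.95 and 2.56 CPM in TAC-HF hearts, against 8.95, 6.45, 7.19 and 9.46 CPM in Sham-HF hearts (-1.402 ± 0.172 SE, edgeR adjusted p = 5.76e-05). Igf2, its neighbour under the same imprint, fell as given above. Kcnq1ot1, the imprinted antisense RNA of Kcnq1, fell to 56.9 to 72.3 CPM in TAC-HF hearts, against 101.1 to 162 CPM in Sham-HF hearts (-1.03 ± 0.143, edgeR adjusted p = 0.000313). Grb10, an imprinted brake on growth signals, rose (0.59 ± 0.0769, 8.37e-05).

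The last comparison asks whether the effect of TAC at 8 weeks differs from that at 2 weeks, each measured against its own shams. Of the 4006 genes called at 8 weeks and tested at 2 weeks, 2346 were called in the same direction at 2 weeks and 15 in the opposite one. The shared calls are 58.2% of the 8-week calls and 49.7% of the 4717 calls at 2 weeks, where 33.2% of all tested genes were called (17.1% higher, 16.1% lower). No heart is in both comparisons. Each time has its own TAC and sham hearts, so time after TAC cannot be told apart from the cohort of hearts. The TAC effect differed between the times in 196 of 14463 genes tested with edgeR (1.36%), with 135 higher at 8 weeks (0.933%) and 61 lower (0.422%). These counts are fragile: with 1 heart left out they ran from 16 without Sham-LVH-2 to 437 without Sham-LVH-1 for higher, and from 6 without Sham-LVH-2 to 217 without Sham-LVH-1 for lower.

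By list, the medians at 2 weeks and at 8 weeks were 1.76 and 0.79 for collagens, 1.25 and 0.72 for matricellular genes, -0.91 and -0.40 for fatty acid genes, -0.71 and -0.26 for the citric acid cycle and -0.61 and -0.02 for nuclear complex I genes. Few single members passed the test of the difference: 4 of 34 collagen genes were lower at 8 weeks, 2 of 38 fatty acid genes and 1 of 36 complex I genes higher. The medians of interferon response genes (0.53 and 0.59), potassium channels (-0.56 and -0.53) and macrophage markers (0.71 and 0.76) lay close together. Of 28 Z-disc and M-band genes 4 passed it, all higher at 8 weeks.

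Acta1 was among the genes with a larger effect at 8 weeks. It was at 568, 569, 594 and 640 CPM in TAC hearts and 50.3 to 91.2 CPM in shams at 2 weeks, and 1057 to 1436 CPM in TAC hearts and 34.2 to 67.1 CPM in shams at 8 weeks (difference of log2 fold changes 1.65 ± 0.264 SE, edgeR adjusted p = 0.0148). All 8-week TAC hearts lay above all 2-week TAC hearts. Myot was at 20.0 to 25.4 CPM in TAC hearts and 14.2 to 21.7 CPM in shams at 2 weeks, and 56.2 to 81.6 CPM in TAC hearts and 21.4 to 27.8 CPM in shams at 8 weeks (1.136, edgeR adjusted p = 0.0148). Bdh1 was at 28.3, 30.6, 33.5 and 29.7 CPM in TAC hearts and 29.2 to 34.3 CPM in shams at 2 weeks, so that its increase was seen at 8 weeks and not at 2 weeks (difference 1.113 ± 0.149, edgeR adjusted p = 0.00243).

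Taco1, a translational activator of a mitochondrial gene, differed mainly at 2 weeks, with 7.69 to 10.1 CPM in TAC hearts and 14.4 to 16.7 CPM in shams, against 11.7 to 13.6 CPM in TAC hearts and 11.0 to 12.8 CPM in shams at 8 weeks (difference 0.85, edgeR adjusted p = 0.0133). Its sham levels differed between the cohorts as well. Cebpb was at 4.05 to 7.98 CPM in TAC hearts and 5.08 to 13.1 CPM in shams at 2 weeks, and the difference from its 8-week effect missed the threshold (edgeR adjusted p = 0.087).

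In the other direction, H19 was at 7.03, 5.79, 8.43 and 6.42 CPM in TAC hearts and 4.08 to 4.85 CPM in shams at 2 weeks, above its shams there and below them at 8 weeks (difference -2.01 ± 0.223 SE, edgeR adjusted p = 0.000245). The shams of the 8-week cohort were themselves higher, at 6.45 to 9.46 CPM. Bmp1, the protease that trims procollagen, was at 19.9 to 25.7 CPM in TAC hearts and 9.88 to 10.5 CPM in shams at 2 weeks, and 12.5 to 15.6 CPM in TAC hearts and 10.5 to 12.0 CPM in shams at 8 weeks (-0.86, edgeR adjusted p = 0.00876). Arhgap18, a GTPase-activating protein, was at 15.1 to 21.6 CPM in TAC hearts and 7.79 to 13.2 CPM in shams at 2 weeks, against 5.66 to 9.82 CPM in TAC hearts and 10.8 to 13.8 CPM in shams at 8 weeks (-1.37, edgeR adjusted p = 0.0172). Pitpnm1, a lipid transfer protein, overlapped between TAC hearts and shams at 2 weeks (5.62 to 6.47 and 5.69 to 6.47 CPM) and was at 3.59 to 5.25 CPM in TAC hearts and 8.04 to 8.40 CPM in shams at 8 weeks (-0.90, edgeR adjusted p = 0.0148).

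**Figure D5:**
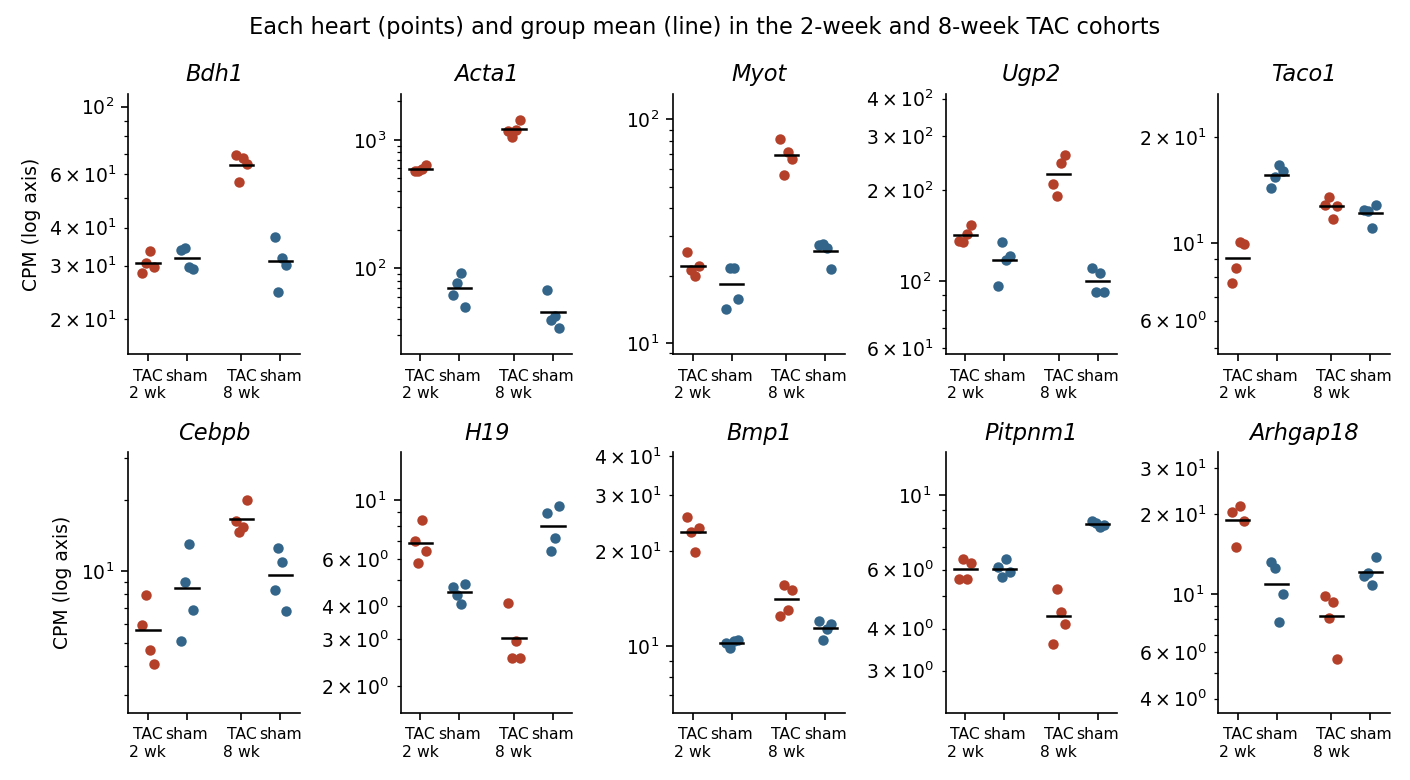
Expression in CPM (log axis) of 10 genes in each heart of the 2-week and 8-week cohorts, TAC left of sham within each time, with lines at the group means. Bdh1 and Myot lie apart from their shams at 8 weeks only, H19 changes sides, and for Cebpb the test of the difference was not passed (edgeR adjusted p = 0.087).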

How the data were processed

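RNA of flash-frozen hearts was extracted with Trizol, depleted with RiboZero and made into libraries with an NEB kit, per the labels' protocols. The authors deposited 1 table of expected counts per gene, written as whole numbers. FastQC, Salmon and build mm9 are named in the submitters' processing notes; the versions, the annotation, the strand setting and how transcripts were summed were not given in the sources used. Symbols, classes and exon lengths came from GENCODE M21 (42462 of 43432 identifiers matched a symbol), and 1 row that names no gene was left out.

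Counts were filtered with filterByExpr, scaled by TMM and tested with the quasi-likelihood test of edgeR 4.0.16 in R 4.3.3, with Benjamini-Hochberg adjustment at 0.05, on the 8 hearts (16 for the difference between times). DESeq2 1.42.0 was an alternative. In simulated data the test called 72% of genes changed 1.5-fold and 94% changed 2-fold. The simulation changed 50 genes at each fold, all with a mean above 2 CPM, and left the other genes unchanged. It thus gives no rate for genes with lower counts or for a response as broad as the one here.

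Named genes were the largest called changes, smallest p-values, largest gains and losses of CPM, widest spread in TAC-HF hearts, up to 3 called members per list, 10 set genes and the smallest p-values of the difference. Groups, lists and rules were chosen with earlier results of these data known, and other list members that are named were chosen after their values were seen. A few genes are not reported here.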

Additional observations from a re-analysis of the deposited data

Results flagged for a closer look

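In 25 of 436 groups of 4 hearts checked among the named genes, 1 heart stood apart, with the gap to its nearest neighbour larger, as a share of the group's range, than Dixon's critical value. Chance flags about 1 in 20 groups, which is close to this count. The number in brackets is the gap as a share of the range. The heart lay above the rest of the TAC-HF group for Phkg1 in TAC-HF-2 (0.865), Ndufa8 in TAC-HF-3 (0.858), mt-Nd4 in TAC-HF-2 (0.874) and B2m in TAC-HF-3 (0.860). It lay below the rest of that group for Aspn in TAC-HF-3 (0.854), Adcy7 in TAC-HF-3 (0.907), Corin in TAC-HF-3 (0.896), Atp6ap2 in TAC-HF-2 (0.843), Casp12 in TAC-HF-2 (0.955), Ccnd1 in TAC-HF-1 (0.846), Hba-a1 in TAC-HF-2 (0.871) and Gucy1a1 in TAC-HF-4 (0.831). Among Sham-HF hearts it lay above for Ankrd1 in Sham-HF-1 (0.852), Smoc2 in Sham-HF-2 (0.919), Mmp23 in Sham-HF-2 (0.866), Itga11 in Sham-HF-4 (0.956), Rxrg in Sham-HF-3 (0.888), Cacna1c in Sham-HF-4 (0.850), Ccl21a in Sham-HF-3 (0.844), Nhp2 in Sham-HF-1 (0.837) and Pi16 in Sham-HF-1 (0.897). It lay below for Ppm1k in Sham-HF-1 (0.950), Kcnd2 in Sham-HF-1 (0.888), Asb15 in Sham-HF-1 (0.893) and Stard10 in Sham-HF-3 (0.891).

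The TAC effect at 8 weeks differed from that at 2 weeks (edgeR, adjusted p between 0.000245 and 0.0497) for 16 named genes. On the log2 scale it was higher at 8 weeks for Acta1 (1.65), Myot (1.136), Bdh1 (1.113), Ugp2 (0.91), Amot (0.88), Taco1 (0.85), Coq5 (0.69) and Narf (0.70). It was lower for Sparc (-0.68), Mmp2 (-0.77), Itga11 (-1.1397), H19 (-2.01), Bmp1 (-0.86), Pitpnm1 (-0.90), Gucy1a1 (-0.72) and Arhgap18 (-1.37).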

How the results depend on the processing

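The counts of genes called in TAC-HF against Sham-HF hearts stayed within 1.5 times of 2032 higher and 2000 lower under the alternatives run, except library totals only, which gave 6075 and 568. With 1 heart left out they ran from 1446 to 2096 higher and from 1525 to 2108 lower. The difference between 8 and 2 weeks (135 higher, 61 lower) was less stable, with 416 and 205 by DESeq2, 14 and 16 under library totals, and, with 1 heart left out, 16 to 437 higher and 6 to 217 lower. Each of the 16 hearts moved these counts by over 1.5 times, except Sham-LVH-4 for the lower count. The cause was not tested. With replicate number as a block, 1769 were called higher and 1802 lower, and for the difference 480 and 176. Hearts with the same number did not clearly deviate together (correlations -0.226, 0.0856, 0.0827 and -0.180). Between hearts with different numbers the correlations ran from -0.119 to 0.233. Such correlations cannot show whether the numbers mark pairs, and the labels do not say.

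Of 223 named genes called, 185 kept call and sign under every alternative run, 38 missed the threshold under at least 1, and 1 changed sign. The called gene whose TAC-HF against Sham-HF log2 fold change turned sign was Ppp3cb, under library totals (0.0790). Named genes that were not called in the main test turned as well. These were Coq5 (0.286) and Gucy1a1 (0.225) under library totals, and Taco1 (-0.0540) and Actc1 (-0.0758) with the length trend removed. Actc1, which was not called in the main test, had -0.00348 without Sham-HF-4 and -0.00789 without TAC-HF-3, in a range up to 0.0790 without TAC-HF-4. Under library totals Actc1 was called higher (0.362, edgeR adjusted p = 0.00519). Depth outside the mitochondrial genome, 6560537 to 11339105 counts per heart, limits low genes: T and NK cell markers could not be tested.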

Other observations

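Some genes varied widely among hearts of the same group. Hspa1a, an inducible chaperone, was at 5.17, 11.3, 52.8 and 21.2 CPM in TAC-HF hearts and 73.2, 2.62, 4.75 and 1.85 CPM in Sham-HF hearts. Sham-HF-1 was the highest of all 8 hearts and also the highest sham for 20 of 26 tested heat shock genes. Dbp, an output gene of the daily clock, was at 15.1, 3.399, 20.1 and 9.89 CPM in TAC-HF hearts and 3.43, 8.67, 2.75 and 22.3 CPM in Sham-HF hearts. The groups overlapped in both genes, and 1 of 19 clock genes was called (higher, edgeR).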
